A study of Mus musculus with 23 samples.

Results

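The 9 genes described here were Sall1, Spi1, Irf8, Mef2a, Mef2c, Maf and Runx1, which encode transcription factors tied to microglial identity, and Tgfbr1 and Smad3, which encode a receptor and a signal carrier of the TGF-beta pathway. They were chosen by name, with earlier results of these data known, from 35825 genes in the table, and all 9 were found and tested. RNA had been sequenced from GFP+ cells sorted by flow cytometry from mouse retinas, with the retinas of several mice pooled before each sort. Wild-type (WT) mice carried GFP knocked in at the Cx3cr1 locus, and Spp1 KO mice carried the same reporter on a global deletion of Spp1, the gene for the secreted protein osteopontin, so that every group, controls included, carried the reporter by its label. By the paper, mice heterozygous for the reporter were crossed to Spp1 KO mice and bred until the Spp1 deletion was homozygous. The copy number of the reporter in the sequenced mice is not stated. Each genotype was sampled in naive retinas (4 WT and 4 KO libraries), at 4 weeks after elevation of intraocular pressure (IOP) by microbeads injected into the anterior chamber (4 WT and 4 KO), and at 7 days after optic nerve crush (ONC; 3 WT and 4 KO). The ages of the mice are not given in the sources used here. The reporter marks every cell that uses the Cx3cr1 promoter, which includes macrophages and monocytes as well as microglia. The deletion is global by its label, and the values of Spp1 given below go against that label in part of the KO libraries.

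Microglia are the resident macrophages of the retina and brain. PU.1 (encoded by Spi1), IRF8 and RUNX1 act in many macrophages and open the myeloid programme, MEF2 factors and MAF shape the resident state, and SALL1 is used by microglia and hardly by other macrophages. TGF-beta is held latent at the cell surface and matrix, is released by integrins, and signals through a receptor pair of TGFBR2 and TGFBR1 to SMAD2 and SMAD3, which enter the nucleus with SMAD4. In microglia this signal is known to be needed for the adult homeostatic programme, Sall1 included.

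Several libraries stood apart before any comparison was made. Spp1, the deleted gene, had a normalized count of at least 100 in 6 of the 12 libraries labelled Spp1 KO (1 naive, 2 IOP and 3 ONC), and in the KO ONC libraries it was 4750, 6811, 15 and 6226, against 14556, 16067 and 22906 in the WT ONC libraries. Cx3cr1, the reporter locus, lay between 952 and 1233 in the 4 KO IOP libraries and between 26836 and 54612 in the 4 WT IOP libraries. A list of 12 genes that macrophages of all kinds share (Aif1, Itgam, Ptprc, Fcgr3, Fcer1g, Tyrobp, C1qa, C1qb, C1qc, Cd68, Laptm5 and Ctss, here the pan-macrophage list) held 1.07, 1.30, 2.97 and 1.37% of the normalized counts of the 4 naive KO libraries, so that replicate 3 stood apart from its group. That list held 2.46 to 2.89% in naive WT, 1.63 to 2.64% in WT IOP, 2.96 to 3.79% in WT ONC, 3.20 to 3.42% in KO IOP and 3.67 to 4.29% in KO ONC libraries. Marker genes of rods held a median of 3.05% in naive KO libraries and 0.588 to 2.06% in the other groups, and marker genes of the lens held 0.128 to 0.948% in WT IOP and at most 0.0188% elsewhere. Ddx3y, a gene of the Y chromosome, lay between 0 and 3.05 in the 4 KO IOP libraries, at 28.1 in naive KO replicate 3 and between 1302 and 1713 in the other naive KO libraries, between 1369 and 1717 in KO ONC and between 633 and 2274 in WT IOP libraries, and it ran from 0 to 2623 in naive WT and from 3.51 to 1797 in WT ONC libraries. Its level, which depends on the share of males in a pool, therefore differed with group in the comparisons that use KO IOP libraries. It was also uneven in those that use WT ONC libraries, at 1797, 9.21 and 3.51 by replicate. Beside these stood 1369 to 1717 in KO ONC libraries and 2623, 556, 0 and 805 in naive WT libraries. The markers of homeostatic microglia were present in every group, with 0 of the 16 at zero throughout a group. In bulk libraries fewer macrophages in a sort and less RNA of a gene per macrophage cannot be told apart. The part of these differences between libraries in the results that follow was not tested, and values of the 9 genes on the scale of the pan-macrophage list are given beside their comparisons.

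Promoter sequences are shown for 5 of the genes that passed the thresholds below. Sall1 passed them too and its window was searched, but its sequence is not shown. The windows run from 250 bases before to 20 bases after a RefSeq start site (GRCm38.p6), chosen as the site nearest to the gene's annotated start, and are written 5′ to 3′ along the gene. Irf8 (chr8:120736108-120736377, + strand), Tgfbr1 (chr4:47352972-47353241, + strand), Mef2a (chr7:67372839-67373108, - strand), Mef2c (chr13:83503784-83504053, + strand) and Runx1 (chr16:92826055-92826324, - strand) are all protein-coding. Capitals mark matches, on either strand, to any of 6 motifs searched: a PU.1 core (AGGAAGT), a RUNX core (TGTGGT), an IRF element (AANNGAAA), a MAF core (TGCTGA), a SMAD element (GTCTAGAC) and the MEF2 site.
Irf8: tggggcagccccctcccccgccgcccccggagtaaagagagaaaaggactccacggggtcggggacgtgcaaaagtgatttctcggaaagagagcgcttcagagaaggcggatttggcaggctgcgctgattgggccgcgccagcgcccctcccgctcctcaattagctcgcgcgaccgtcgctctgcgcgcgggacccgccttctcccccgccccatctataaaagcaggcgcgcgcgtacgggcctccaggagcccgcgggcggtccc
Tgfbr1: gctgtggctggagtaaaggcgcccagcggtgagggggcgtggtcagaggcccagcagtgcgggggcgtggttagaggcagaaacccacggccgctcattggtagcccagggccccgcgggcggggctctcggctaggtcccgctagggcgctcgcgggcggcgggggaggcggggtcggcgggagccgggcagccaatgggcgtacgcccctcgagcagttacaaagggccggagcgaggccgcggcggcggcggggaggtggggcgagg
Mef2a: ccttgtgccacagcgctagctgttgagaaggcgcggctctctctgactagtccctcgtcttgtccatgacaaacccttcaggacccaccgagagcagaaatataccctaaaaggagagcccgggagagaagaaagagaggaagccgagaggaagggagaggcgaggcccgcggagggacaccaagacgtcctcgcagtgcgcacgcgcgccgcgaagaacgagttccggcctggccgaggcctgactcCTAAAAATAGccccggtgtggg
Mef2c: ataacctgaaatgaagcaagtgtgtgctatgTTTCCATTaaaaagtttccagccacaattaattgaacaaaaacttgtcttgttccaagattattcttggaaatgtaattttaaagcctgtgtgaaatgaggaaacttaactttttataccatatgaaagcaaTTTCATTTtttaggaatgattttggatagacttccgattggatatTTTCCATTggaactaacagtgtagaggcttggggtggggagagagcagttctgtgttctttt
Runx1: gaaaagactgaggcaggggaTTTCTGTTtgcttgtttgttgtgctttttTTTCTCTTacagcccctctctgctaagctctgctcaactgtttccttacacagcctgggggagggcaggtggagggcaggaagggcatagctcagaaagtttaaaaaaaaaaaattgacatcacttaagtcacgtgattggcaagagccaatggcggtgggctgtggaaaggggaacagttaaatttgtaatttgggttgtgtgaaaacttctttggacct
The IRF element was matched 3 times in the Mef2c window and 2 times in the Runx1 window, and 22.5% of 32851 promoter windows held at least 1 match. The MEF2 site was matched in the Mef2a window, across the start site, and 3.02% of windows held it. The other windows searched, those of Sall1, Irf8, Tgfbr1 and Smad3, held none of these letters. The PU.1 core was in 8.43% of all windows, the RUNX core in 15.1%, the MAF core in 17.5% and the SMAD element in 0.183%, and in none of the 7 windows searched. A match is a description of the sequence and not a binding site, and a window without one says nothing of the factor. Spi1 and Maf were not searched.

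Per kilobase of merged exons, Tgfbr1 stood above the other 8 genes in the mean of every group. In naive WT libraries its level was 6879 ± 1205 normalized counts per kilobase (mean ± SD, n = 4), followed by Irf8 at 1569 ± 54.3 and Spi1 at 1377 ± 722, which overlapped. Mef2c (872 ± 144) and Sall1 (644 ± 64.3) came next. Maf (298 ± 29.9) and Mef2a (252 ± 91.3) did not differ beyond their spread, and neither did Smad3 (134 ± 15.4) and Runx1 (106 ± 59.0), the lowest of the 9. In WT ONC libraries (n = 3) the 3 highest stood in the same order, Tgfbr1 at 6593 ± 1621, Irf8 at 3215 ± 966 and Spi1 at 3037 ± 850. In KO ONC libraries (n = 4) Tgfbr1 was at 4171 ± 504, and Spi1 at 3428 ± 531 and Irf8 at 3210 ± 218 normalized counts per kilobase overlapped.

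**Figure D1:**
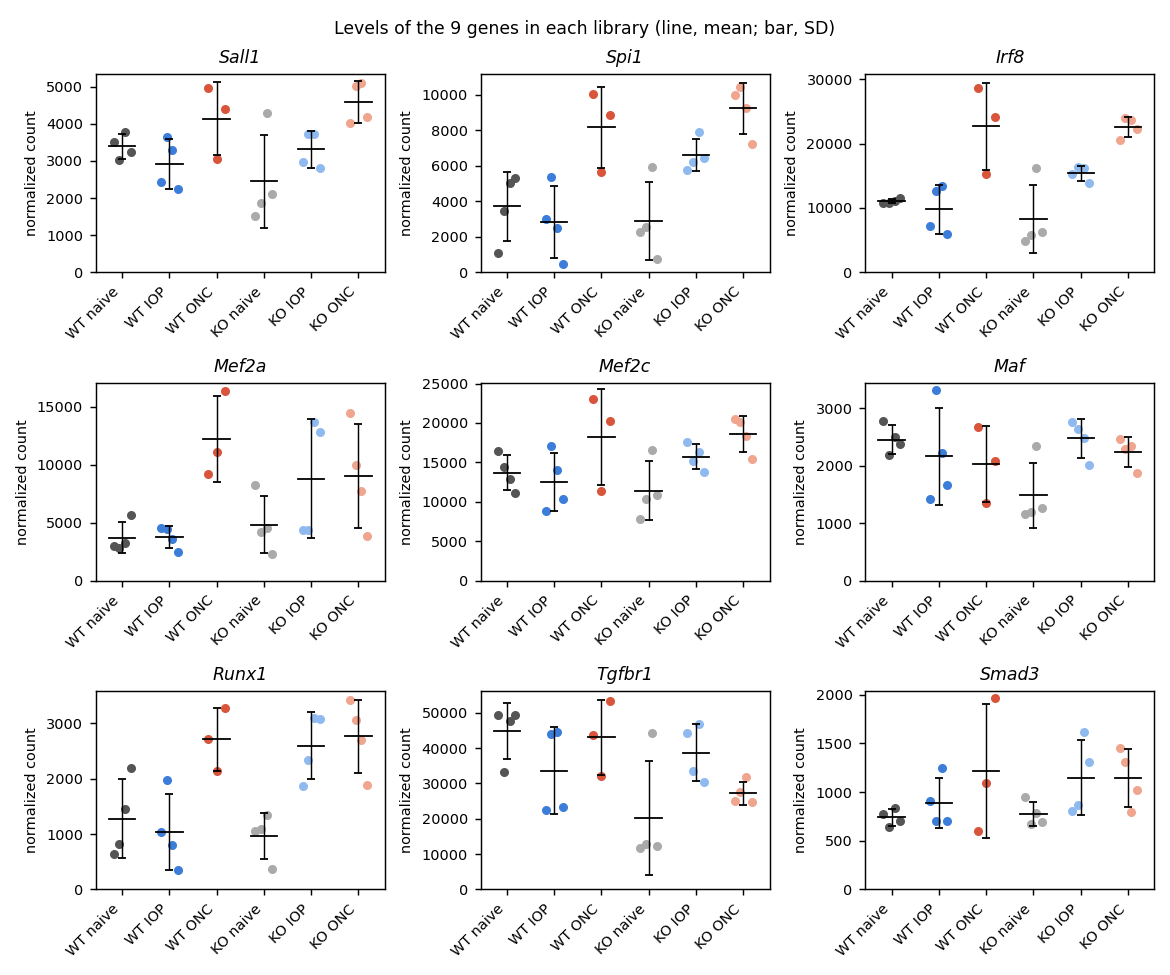
Normalized count (linear axis from 0) of each of the 9 genes in each of the 23 libraries, by genotype and treatment; points are libraries, horizontal lines group means and bars the SD. Naive KO replicate 3 lies above the other 3 libraries of its group for Sall1, Irf8, Maf and Tgfbr1, and all ONC libraries lie above all naive WT libraries for Irf8.

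The myeloid factors are described first, as normalized counts by replicate. Irf8, which encodes an interferon regulatory factor that microglia need for their development, was at 10783, 10776, 11136 and 11586 in naive WT, at 7160, 12701, 13359 and 5915 in WT IOP and at 28692, 15277 and 24084 in WT ONC libraries. Among KO libraries it was at 4824, 5710, 16163 and 6214 in naive, at 15297, 16298, 16268 and 13801 in IOP and at 20603, 23924, 23745 and 22316 in ONC libraries. All 7 ONC libraries exceeded all naive WT libraries, and 3 of the 4 naive KO libraries lay below every naive WT library.

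Spi1, the gene of PU.1, was at 1074, 3433, 5005 and 5337 in naive WT, at 3017, 5375, 2464 and 448 in WT IOP and at 10043, 5625 and 8882 in WT ONC libraries. KO values were 2257, 2540, 5933 and 713 in naive, at 5787, 6243, 7890 and 6466 in IOP and at 10020, 10441, 9275 and 7215 in ONC libraries. The spread within naive WT was wide beside that of Irf8 in the same libraries (3712 ± 1945 against 11070 ± 383, SD, n = 4).

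Runx1, which encodes a core-binding factor of blood and myeloid development, was at 633, 816, 1457 and 2200 in naive WT, at 1033, 1982, 794 and 358 in WT IOP and at 2716, 2145 and 3280 in WT ONC libraries. Of the KO libraries, the values were 1046, 1098, 1336 and 366 in naive, at 1874, 2344, 3097 and 3086 in IOP and at 3427, 3066, 2692 and 1887 in ONC libraries. Every KO IOP and KO ONC library lay above every naive KO library for Runx1, whereas naive WT and WT ONC libraries overlapped. The libraries with the lowest Spi1 in naive WT (replicate 1), WT IOP (replicate 4) and naive KO (replicate 4) also had the lowest Runx1 of their groups.

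Among the factors of the resident state, Sall1 was at 3524, 3016, 3792 and 3235 in naive WT, at 2428, 3655, 3288 and 2255 in WT IOP and at 4966, 3060 and 4402 in WT ONC libraries. In the KO it was at 1526, 1853, 4308 and 2104 in naive, at 2979, 3741, 3727 and 2797 in IOP and at 4014, 5025, 5110 and 4198 in ONC libraries. Naive KO replicate 3 was above every naive WT library, and the other 3 were below every one of them.

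Mef2c, a MEF2 factor with a known role in restraining microglial responses, was at 16399, 14448, 12909 and 11081 in naive WT, at 8855, 17016, 14053 and 10373 in WT IOP and at 22992, 11323 and 20235 in WT ONC libraries. KO libraries had 7795, 10385, 16614 and 10846 in naive, at 17601, 15164, 16275 and 13824 in IOP and at 20523, 20153, 18366 and 15420 in ONC libraries. The groups overlapped in every pairing.

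Mef2a, which encodes a second MEF2 factor of wide tissue use, was at 2970, 2850, 3266 and 5685 in naive WT, at 4509, 4449, 3621 and 2435 in WT IOP and at 9228, 11058 and 16357 in WT ONC libraries. In the KO it was at 8235, 4179, 4563 and 2330 in naive, at 4385, 4353, 13689 and 12774 in IOP and at 14480, 10004, 7767 and 3834 in ONC libraries. The WT ONC libraries lay above all naive WT libraries, and the KO IOP libraries fell into 2 low and 2 high values.

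Maf, a large MAF factor that lens cells use as well, lay between 2184 and 2774 in naive WT, 1430 and 3328 in WT IOP and 1353 and 2668 in WT ONC libraries. In the KO it was at 1161, 1198, 2338 and 1265 in naive, and lay between 2009 and 2771 in IOP and 1876 and 2472 in ONC libraries. The lens markers were high in the WT IOP libraries, where Maf was 2163 ± 845 (SD, n = 4) against 2459 ± 246 in naive WT, and the part of lens RNA in Maf there was not tested.

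Of the TGF-beta genes, Tgfbr1, which encodes the type I receptor, was at 49328, 33195, 47783 and 49481 in naive WT, at 22431, 44009, 44572 and 23406 in WT IOP and at 43746, 32172 and 53318 in WT ONC libraries. For the KO they were 11733, 12717, 44295 and 12153 in naive, at 44306, 33416, 46843 and 30513 in IOP and at 24891, 27580, 31787 and 24743 in ONC libraries. The 3 naive KO libraries from 11733 to 12717 were the lowest of all 23, and the 4 KO ONC libraries lay below all WT ONC libraries. Smad3, the receptor-activated SMAD of this branch, lay between 646 and 839 in naive WT, 699 and 1244 in WT IOP, 599 and 1965 in WT ONC, 668 and 948 in naive KO, 805 and 1616 in KO IOP and 792 and 1458 in KO ONC libraries. It passed the thresholds in 0 of the 9 comparisons by limma.

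The effect of the genotype was asked first. Fold changes are on the log2(normalized count + 1) scale, and a gene was called at a Benjamini-Hochberg adjusted p under 0.05 (limma, over 17102 genes) with an absolute log2 fold change over 0.58. In naive retinas, 0 of the 9 genes was called and 3 had an unadjusted p under 0.05, where, of all genes tested, 0.0702% passed as higher in the KO and 0.339% as lower. The median log2 fold change of the 9 was -0.51, against 0.03 over all genes. Tgfbr1 was at -1.40 ± 0.34 (SE) with an adjusted p of 0.0568 by limma, and Maf at -0.78 ± 0.25 with 0.12. The count turned on naive KO replicate 3. Without it, 4 of the 9 were called, all lower in the KO by limma, namely Tgfbr1 (-1.86, adjusted p = 1.09e-04), Maf (-1.02, adjusted p = 0.00836), Irf8 (-0.99, adjusted p = 0.00912) and Sall1 (-0.90, adjusted p = 0.00474). Of the 17102 genes, 1623 were called without that library, against 70 with it. DESeq2 on recovered reads called 1 with all libraries kept, Tgfbr1 (-1.15, adjusted p = 0.0387), and edgeR called 0. The pan-macrophage list moved with these genes, with a difference of mean log2 level of -0.97 in naive KO against naive WT. When the libraries were rescaled to equal levels of that list, every gene shifted by about that amount, and 8 of the 9 had a positive log2 fold change. Tgfbr1 was then at -0.43 (limma adjusted p = 0.0492, under the fold threshold) and Mef2c alone was called, higher in the KO (0.66, adjusted p = 0.037). On that scale 4144 of the 17102 genes were called, in either direction.

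After IOP elevation, 0 of the 9 was called between KO and WT by limma, 4 had an unadjusted p under 0.05, and all 9 log2 fold changes were positive (median 0.36, against -0.03 over all genes). The background was 0.468% of genes called higher and 1.64% lower. The largest values were those of Spi1 (1.67 ± 0.62, adjusted p = 0.138), Runx1 (1.54 ± 0.45, adjusted p = 0.0713) and Mef2a (1.06 ± 0.43, adjusted p = 0.172) by limma. DESeq2 called Runx1 (1.32, adjusted p = 0.0462), as did limma without WT IOP replicate 2 (adjusted p = 0.0231), and edgeR called 0. The pan-macrophage list was higher by 0.72 (log2) in these KO libraries. After rescaling to it 4 of the 9 values were positive, 0 were called, and Runx1 was at 0.82 (adjusted p = 0.166). With Ddx3y as a covariate, a choice made after seeing the data, 6 values were positive and 0 were called. That fit called 29 of the 17102 genes, against 360 with no covariate.

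After ONC, 0 of the 9 was called between KO and WT, and 0 had an unadjusted p under 0.05 by limma, with 0.076% of all genes called higher and 0.0117% lower. edgeR and DESeq2 also called 0. The pan-macrophage list differed by 0.08 here, so that both scales gave close values. Tgfbr1 was at -0.64 ± 0.36 (adjusted p = 0.622), and at -0.73 with the list's mean as a covariate, where it was called (adjusted p = 0.0423, limma). Irf8, Runx1, Smad3 and Mef2c had log2 fold changes of 0.04 ± 0.32, 0.02 ± 0.48, 0.04 ± 0.32 and 0.09 ± 0.26 (SE).

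**Figure D2:**
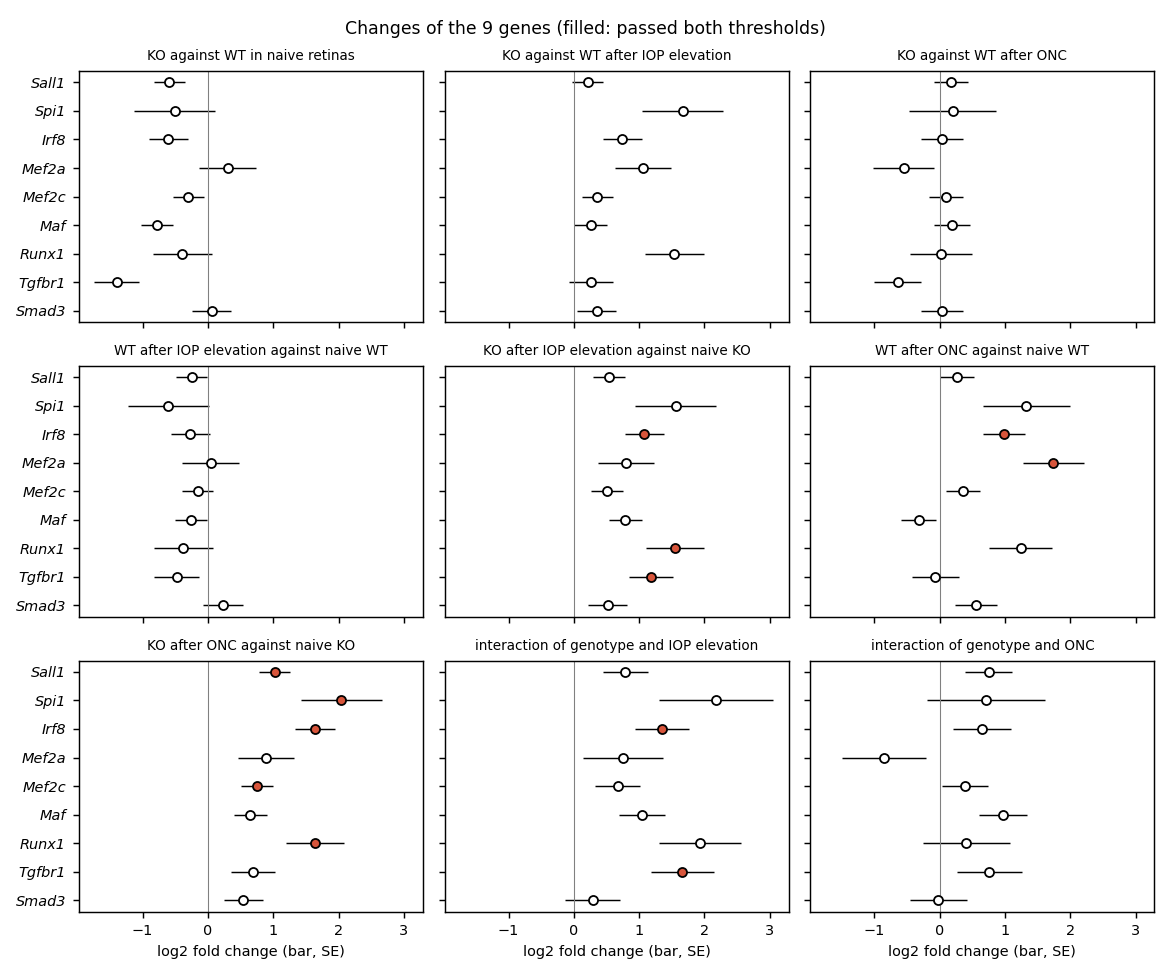
Log2 fold change of the 9 genes in the 9 comparisons (x axis, log2 scale; bars, SE from limma), with filled points for genes that passed both thresholds. Filled points are 0 in the 3 comparisons of genotype, 2 in WT after ONC, 3 in KO after IOP elevation, 5 in KO after ONC and 2 in the interaction of genotype with IOP elevation.

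In WT, elevated IOP was followed by no called change among the 9, by limma, edgeR or DESeq2, and 0 had an unadjusted p under 0.05 by limma. The log2 fold changes ran from -0.61 ± 0.62 (Spi1) to 0.23 ± 0.30 (Smad3), beside a background of 0.842% of genes called higher and 0.719% lower. After rescaling to the pan-macrophage list 7 of the 9 values were positive and 0 were called.

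In KO libraries, 3 of the 9 genes rose after IOP elevation against naive KO: Runx1 by 1.55 ± 0.45 (adjusted p = 0.0384), Tgfbr1 by 1.18 ± 0.34 (adjusted p = 0.038) and Irf8 by 1.08 ± 0.30 (log2, SE, adjusted p = 0.033, limma). These are 2.94-, 2.27- and 2.12-fold. All 9 values were positive and their median was 0.80, against -0.12 over all genes, where 5.06% were called higher and 2.81% lower. Maf was at 0.79 ± 0.25 with an adjusted p of 0.0541. These calls changed with single libraries. Without naive KO replicate 3, 7 of the 9 were called, Tgfbr1 (1.65, adjusted p = 1.76e-04), Irf8 (1.47, adjusted p = 2.63e-04), Sall1 (0.86), Spi1 (2.03), Mef2c (0.71), Maf (1.03) and Runx1 (1.76) by limma. That fit called 3182 of the 17102 genes, against 1347 with all libraries kept. Without naive KO replicate 1, 2 or 4, or KO IOP replicate 2, 3 or 4, 0 were called, and without KO IOP replicate 1, 1 was. In that order these fits called 205, 92, 110, 483, 407, 699 and 925 of the 17102 genes. edgeR called 0 and DESeq2 called 3, Irf8, Maf and Runx1, where they called 559 and 1908 of the 17102 genes. With the level of Ddx3y as a covariate 0 were called, at 0.95 for Irf8 (adjusted p = 0.266), 0.80 for Tgfbr1 (0.366) and 1.11 for Runx1 (0.35, limma), and without the 6 libraries labelled Spp1 KO in which Spp1 was at least 100 also 0. These 2 fits called 5 and 16 of the 17102 genes, against 1347, so that nearly all genes lost their calls. The naive KO library with little Ddx3y, replicate 3, had Irf8 at 16163 and Tgfbr1 at 44295, against 13801 to 16298 and 30513 to 46843 in the KO IOP libraries. It also held 2.97% of its counts in the pan-macrophage list, against 1.07 to 1.37% in the other naive KO libraries. Naive WT replicate 3, with Ddx3y at 0, had Irf8 at 11136 and Tgfbr1 at 47783, within the range of the other naive WT libraries. The part of sex in these values was not tested. Of 13 markers of border macrophages and monocytes 2 were called higher in this comparison, the monocyte chemokine receptor gene Ccr2 (4.30 ± 0.76, adjusted p = 0.00611), from 56.1 ± 34 to 1414 ± 973 normalized counts (SD, n = 4 each), and Ms4a7 (1.33 ± 0.39, adjusted p = 0.04, limma), and their part in the rises was not tested. Of the 12 genes in the pan-macrophage list 11 were called higher in the same comparison, and the list's mean was higher by 1.30 (log2). After rescaling to it the rises turned for Irf8 (-0.22) and Tgfbr1 (-0.12), Runx1 was at 0.25, and Sall1 (-0.76, adjusted p = 0.00198) and Mef2c (-0.79, adjusted p = 0.00197, limma) were called lower. The rescaled fit called 10861 of the 17102 genes, in either direction. It moved every gene down by about 1.30, so that a call as lower there is relative to the list and not to the other genes.

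**Figure D3:**
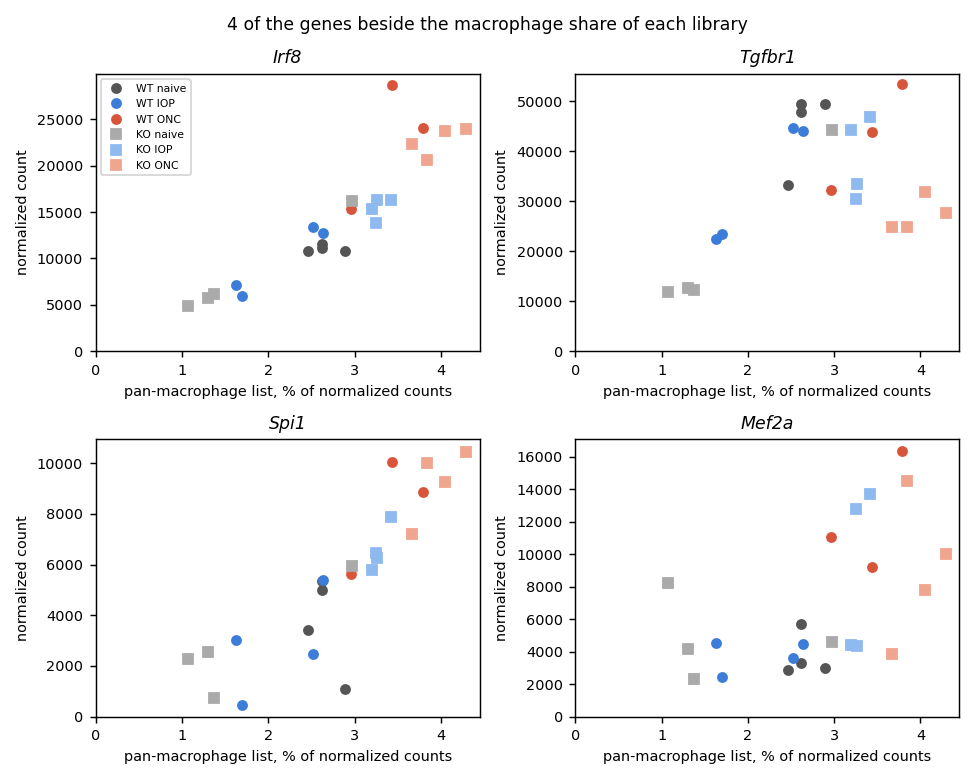
Normalized counts of Irf8, Tgfbr1, Spi1 and Mef2a (y axes, linear) in each of the 23 libraries against the percentage of normalized counts held by the 12 genes of the pan-macrophage list (x axis); circles are WT and squares KO libraries. Irf8 runs along 1 band from 4824 to 28692, while the 4 KO ONC libraries have Tgfbr1 between 24743 and 31787 at shares of 3.67 to 4.29%.

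The response to crush of the optic nerve was compared next. In WT, 2 of the 9 genes rose at 7 days, Mef2a by 1.74 ± 0.47 (3.35-fold, adjusted p = 0.0128) and Irf8 by 0.99 ± 0.32 (1.98-fold, adjusted p = 0.0359, limma), where 7.55% of all genes were called higher and 10.5% lower. edgeR (Mef2a 1.72, adjusted p = 0.0169, and Irf8 1.02, adjusted p = 0.0385) and DESeq2 (Mef2a 1.73, Irf8 1.03) called the same 2 genes. With the rod list as a covariate Mef2a stayed called (1.61, adjusted p = 0.0383), Irf8 was not, and Maf was called lower (-0.67, adjusted p = 0.0307, limma). Irf8 lost its call without any 1 of 6 of the 7 libraries (adjusted p up to 0.191), and Mef2a lost its call without WT ONC replicate 3 (adjusted p = 0.0655). The 6 fits in which Irf8 lost its call had 1458 to 2632 of the 17102 genes called, against 3093 with all kept. Runx1 was at 1.24 ± 0.48 (adjusted p = 0.0768) and Spi1 at 1.33 ± 0.67 (adjusted p = 0.162). Maf and Tgfbr1, at -0.32 ± 0.27 and -0.07 ± 0.36, had negative values.

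In the KO, 5 of the 9 rose after ONC against naive KO, where 12.7% of all genes were called higher and 11% lower. They were Spi1 (2.04 ± 0.62, adjusted p = 0.0188), Irf8 (1.64 ± 0.30, adjusted p = 4.90e-04), Runx1 (1.64 ± 0.45, adjusted p = 0.0102), Sall1 (1.02 ± 0.24, adjusted p = 0.00407) and Mef2c (0.75 ± 0.24, adjusted p = 0.026, log2 and SE, limma). In folds these were 4.12, 3.12, 3.12, 2.03 and 1.68. edgeR and DESeq2 called the same 5. Sall1 and Irf8 stayed called when any 1 of the 8 libraries was left out. Runx1 kept its call in 7 of these 8 fits, Spi1 in 6 and Mef2c in 2. Without naive KO replicate 3 the count was 7, with Tgfbr1 (1.15, adjusted p = 0.00129) and Maf (0.89, adjusted p = 0.00708) called as well, without naive KO replicate 4 it was 2, and without KO ONC replicate 2 it was 3. Over all 17102 genes, 5098 were called without naive KO replicate 3, against 4043 with it. Without naive KO replicate 4 the number was 2850, and without KO ONC replicate 2 it was 2815. Left with the 3 naive libraries and the 1 ONC library labelled Spp1 KO in which Spp1 was under 100, and with that lone library assumed to vary like the other groups, limma called 0, at values of 1.51 ± 0.54 (Irf8), 2.07 ± 1.18 (Spi1), 1.73 ± 0.83 (Runx1), 1.00 ± 0.41 (Sall1) and 0.58 ± 0.43 (Mef2c).

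The direction after ONC depended on what the genes were measured against. All 12 genes of the pan-macrophage list were called higher after ONC in the KO and 4 in WT, by a mean of 1.80 and 0.75 (log2), and marker genes of rods, bipolar and amacrine cells and ganglion cells were lower, with 9 of 11, 10 of 13 and 6 of 10 called lower in the KO. After rescaling to the pan-macrophage list, 0 of the 9 genes was called higher in either genotype. Of the 17102 genes tested, limma on that scale called 3899 in WT and 13019 in the KO, in either direction. The rescaling moved every gene down by about 0.75 in WT and 1.80 in the KO. Before it the median over all genes was -0.10 and -0.12, with Tgfbr1 at -0.07 and 0.69 and Maf at -0.32 and 0.65. A call as lower on this scale is thus relative to the pan-macrophage list and not to the other genes. Tgfbr1 was called lower in WT (-0.82, adjusted p = 0.00211) and in the KO (-1.11, adjusted p = 1.27e-05), and Maf likewise (-1.07, adjusted p = 8.37e-04, and -1.15, adjusted p = 2.90e-05, limma). With the list's mean as a covariate instead, a choice made after seeing the data, Tgfbr1 was called lower in both genotypes (-0.88, adjusted p = 0.0028, and -1.26, adjusted p = 0.0225), while Maf was called lower in WT (-0.90, adjusted p = 0.00101) and not in the KO (-0.74, adjusted p = 0.142). In the KO, Sall1 (-0.78), Mef2c (-1.05) and Smad3 (-1.26, adjusted p = 0.00885) were called lower after rescaling. Irf8 was at 0.24 in WT and -0.16 in the KO, Spi1 at 0.58 and 0.24 and Runx1 at 0.49 and -0.16 on that scale, none of them called. Mef2a, which rose in WT on the deposited scale, was at 0.99 in WT (adjusted p = 0.157) and -0.91 in the KO (adjusted p = 0.0879).

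**Figure D4:**
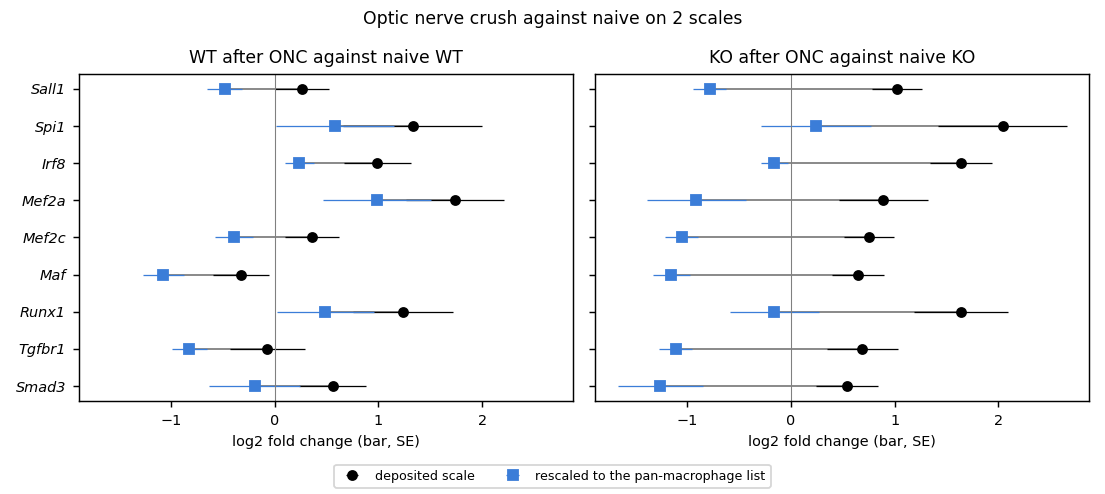
Log2 fold change of the 9 genes after ONC against naive retinas in WT (left) and KO (right), on the deposited scale (black circles) and after rescaling the libraries to equal levels of the pan-macrophage list (blue squares); bars are the SE from limma. The rescaling moves every gene down by about 0.75 in WT and 1.80 in the KO, and leaves Maf and Tgfbr1 between -1.15 and -0.82 in both genotypes.

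Whether the genotypes responded differently was tested as an interaction. For IOP elevation, Tgfbr1 (1.66 ± 0.48, adjusted p = 0.0343) and Irf8 (1.35 ± 0.42, adjusted p = 0.048, limma) were called, both with a larger change in the KO, and 4.85% of all genes were called in that direction and 3.9% in the other. Tgfbr1 changed by -0.48 ± 0.34 in WT and by 1.18 ± 0.34 in the KO, and Irf8 by -0.27 ± 0.30 and 1.08 ± 0.30. All 9 interactions were positive (median 1.04, against -0.08 over all genes). The count was 6 without naive KO replicate 3 and 5 without WT IOP replicate 2, and it was 0 without any 1 of 9 other libraries (naive WT replicates 3 and 4, WT IOP replicates 1 and 4, naive KO replicates 1, 2 and 4, and KO IOP replicates 1 and 3). Over all 17102 genes, limma called 3074 without naive KO replicate 3 and 1932 without WT IOP replicate 2, against 1496 with all kept. Without the 9 other libraries in turn it called 940, 835, 573, 611, 1033, 626, 695, 1199 and 1034, in the order above. edgeR called 0, and DESeq2 called 1, Runx1 (1.73, adjusted p = 0.0437), where they called 1215 and 2158 of the 17102 genes. Without the 6 libraries labelled Spp1 KO that had Spp1, 0 were called, and with Ddx3y as a covariate also 0, at 1.16 for Tgfbr1 (adjusted p = 0.358) and 1.17 for Irf8 (adjusted p = 0.308, limma). These 2 fits called 144 and 44 of the 17102 genes. On the scale of the pan-macrophage list the interaction was -0.03 for Tgfbr1 and -0.34 for Irf8, both uncalled, and 4 others were called negative: Sall1 (-0.90), Mef2c (-1.02), Maf (-0.64) and Smad3 (-1.39, adjusted p = 0.0452). That rescaled fit called 9613 of the 17102 genes, in either direction. It moved every gene by about the same amount, so that a negative call there is relative to the list. For ONC, 0 of the 9 interactions was called and 2 had an unadjusted p under 0.05 by limma, with backgrounds of 0.0585% and 0.0117%. Sall1 was at 0.75 ± 0.36 and Maf at 0.97 ± 0.37, and both were called without naive KO replicate 3 (1.07, adjusted p = 0.0325, and 1.21, adjusted p = 0.0473), while edgeR and DESeq2 called 0. Leaving out that library gave 633 called of the 17102 genes, against 12 with it. On the scale of the pan-macrophage list 0 of the 9 ONC interactions were positive and 0 were called. The comparisons of this section share their naive libraries within a genotype.

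The 9 genes did not vary as 1 set. Taken as deviations from the group means over the 23 libraries (which share depth and cell makeup, so that the values are a description), Sall1 and Irf8 had a Pearson r of 0.941, Mef2c and Maf 0.912, Irf8 and Tgfbr1 0.905, and Sall1 and Tgfbr1 0.885. Spi1 and Runx1 formed a second pair at 0.908, while Spi1 had 0.604 with Irf8 and 0.303 with Mef2c. Mef2a had 0.69 with Runx1 and 0.602 with Smad3, and between -0.067 and 0.118 with Sall1, Irf8, Mef2c, Maf and Tgfbr1. Across all 23 libraries the mean log2 level of the pan-macrophage list had an r of 0.98 with Irf8, 0.94 with Sall1, 0.90 with Mef2c, 0.76 with Spi1, 0.74 with Runx1, 0.72 with Maf, 0.68 with Tgfbr1, 0.53 with Mef2a and 0.40 with Smad3. With the rod list the same genes had an r from -0.93 (Irf8) to -0.38 (Smad3).

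**Figure D5:**
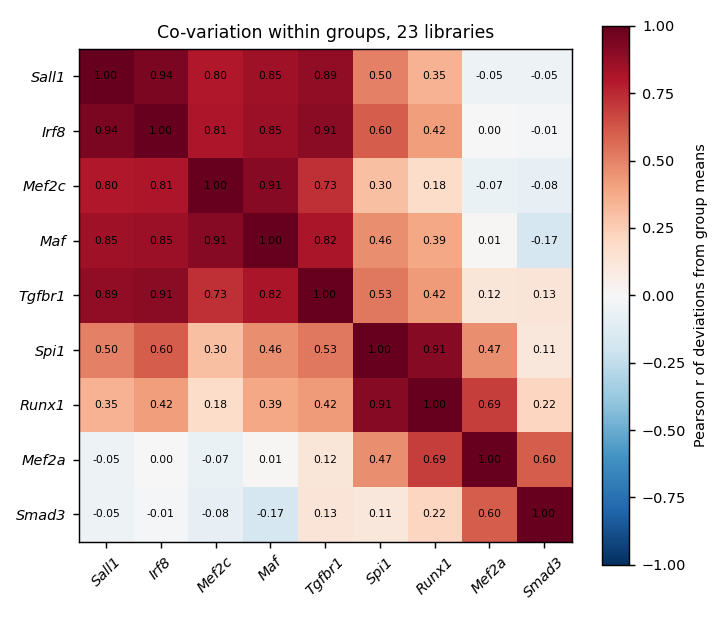
Pearson r between the 9 genes, computed on deviations of log2(normalized count + 1) from the group means over 23 libraries, as a colour from -1 (blue) to 1 (red) with the value in each cell. Sall1, Irf8, Mef2c, Maf and Tgfbr1 share values of 0.73 to 0.94, and Spi1 and Runx1 have 0.91 with each other.

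For each gene, the 3 tested genes with the highest Pearson r across the 23 libraries were listed, as a description over libraries of mixed conditions. Sall1 was most like Siglech (0.957), a microglial sialic acid-binding lectin, and Rhoh (0.953), and the next gene had no symbol. Irf8 was most like C1qc (0.982), a chain of complement C1q, Pld4 (0.982) and Lat2 (0.977). Spi1 was most like Arhgap9 (0.989), Rnpep (0.987) and Hhex (0.981), and Runx1 like Itgb1 (0.969), Pdcd6ip (0.966) and Ifngr2 (0.964). Mef2c was most like Scamp2 (0.948), Cndp2 (0.943) and H2-DMa (0.936), and Mef2a like Plxdc1 (0.968), Cdk9 (0.967) and Efhd2 (0.958). Maf was most like Tlr13 (0.934), Blvrb (0.932) and Hpgd (0.930), and Tgfbr1 like Mgat4a (0.932), Ifngr1 (0.926) and Pank3 (0.918). Smad3 reached lower values than the others, with Rnf111 (0.827), whose product is a ubiquitin ligase that acts in TGF-beta signalling, Ddi2 (0.808) and Cep85l (0.800).

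The rest of the TGF-beta pathway was described from lists of ligands and their activation (11 genes tested), receptors and SMADs (10), inhibitors (12) and target genes (11). In naive retinas 1 of these 44 genes was called between KO and WT, the protease inhibitor gene Serpine2 (-1.48 ± 0.22, adjusted p = 0.00781, limma), at 23136 ± 3331 normalized counts in WT and 8610 ± 3215 in the KO (SD, n = 4 each). Of all genes, 0.0702% were called higher there and 0.339% lower. After IOP elevation and after ONC 0 of the 44 was called between genotypes. Serpine2 was also called lower in WT after IOP elevation (-1.11 ± 0.22, adjusted p = 0.012) and higher in the KO (0.99 ± 0.22, adjusted p = 0.018), with an interaction of 2.09 ± 0.32 (adjusted p = 9.76e-04). It rose in the KO after ONC by 1.81 ± 0.22 (adjusted p = 1.33e-05). The pan-macrophage list differed by -0.97 between naive KO and naive WT, and changed by -0.39 in WT after IOP elevation. In the KO it changed by 1.30 after IOP elevation and 1.80 after ONC, and its part in the values of Serpine2 was not tested.

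Among the ligands, Tgfb3 fell in WT after ONC (log2 fold change -3.89 ± 0.78, adjusted p = 0.00149, limma) and the activator Thbs1 rose by 1.47 ± 0.35 (adjusted p = 0.00584). In the KO, Tgfb2 fell after ONC (-1.32 ± 0.35, adjusted p = 0.00837), and Itgb8, the integrin subunit that releases active TGF-beta, fell after IOP elevation (-2.26 ± 0.69, adjusted p = 0.046). Tgfb1 was low throughout, at 31.6 to 65.5 normalized counts per kilobase as group means, while Nrros, whose product holds latent TGF-beta on microglia, was at 972 to 1583. Tgfb2 and Itgb8 also changed differently between the genotypes after IOP elevation, with interactions of -1.92 ± 0.49 (adjusted p = 0.021) and -3.23 ± 0.97 (adjusted p = 0.0417). Rod markers moved the same way, with a median log2 fold change of the rod list of -0.97 after IOP elevation and -1.24 after ONC in the KO, and the part of other retinal cells in these falls was not tested.

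Among the receptors, Tgfbr2, the type II partner of Tgfbr1, rose in the KO after IOP elevation (1.34 ± 0.36, adjusted p = 0.0299) and after ONC (1.04 ± 0.36, adjusted p = 0.0363), and Acvrl1, another type I receptor, rose in both (0.85 ± 0.26, adjusted p = 0.048, and 1.01 ± 0.26, adjusted p = 0.00702) and in WT after ONC (1.12 ± 0.28, adjusted p = 0.0085, limma). Eng, a co-receptor, rose in the KO after ONC (0.76 ± 0.21, adjusted p = 0.0127). The pan-macrophage list rose in the same comparisons by 1.30 after IOP elevation and 1.80 after ONC in the KO, and by 0.75 after ONC in WT, where 5.06, 12.7 and 7.55% of all genes were called higher, and the part of that rise in the values of the receptors and of the inhibitors below was not tested. Smad4, the shared partner of the receptor SMADs, fell in the KO after IOP elevation (-1.32 ± 0.32, adjusted p = 0.0231), from 519 ± 193 to 202 ± 65.5 normalized counts (SD, n = 4 each), with an interaction of -1.86 ± 0.46 (adjusted p = 0.0183). Of the 12 inhibitors, 4 rose in the KO after ONC, the corepressors Tgif1 (1.38 ± 0.24), Ski (1.11 ± 0.26) and Skil (0.97 ± 0.31) and the SMAD-binding Ldlrad4 (0.89 ± 0.25). In WT 1 did, Tgif1 (0.80 ± 0.26, adjusted p = 0.0351). After IOP elevation Skil (1.32 ± 0.31) and Ldlrad4 (0.89 ± 0.25) rose in the KO, and 0 of the 12 was called in WT. Of the 11 target genes, Cdkn1a, a cell cycle inhibitor, rose after ONC in WT (2.17 ± 0.30, adjusted p = 3.92e-05) and in the KO (1.84 ± 0.28, adjusted p = 8.65e-05), and Id3 fell in the KO (-1.90 ± 0.67, adjusted p = 0.0414). The medians of the 4 lists in the KO after ONC were -0.83, -0.12, 0.52 and 0.35 in the order above, beside -0.12 over all genes.

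The list of other macrophage transcription factors held 49 tested genes. After ONC 14 were called higher and 2 lower in WT (median 0.60), and 26 higher and 1 lower in the KO (median 0.87, limma), beside 7.55 and 12.7% of all genes called higher and a rise of the pan-macrophage list by 0.75 and 1.80. Both held the interferon factor Irf7 (3.22 ± 0.29 in WT and 3.46 ± 0.27 in the KO), the NF-kappaB subunit Relb (3.15 ± 0.60 and 2.50 ± 0.55), the immediate-early gene Egr1 (4.22 ± 0.78 and 2.98 ± 0.72) and Lmo2 (2.70 ± 0.62 and 2.21 ± 0.57). Mef2d, another MEF2 factor, fell in the KO (-0.83 ± 0.24, adjusted p = 0.0133, limma). After IOP elevation 3 rose in WT, Atf3 (1.04 ± 0.24) and Irf9 (0.93 ± 0.19) among them, and 13 rose in the KO, among them Egr2 (1.98 ± 0.46), Relb (1.89 ± 0.55) and Irf7 (1.23 ± 0.27). Of all genes 0.842% in WT and 5.06% in the KO were called higher there, and the pan-macrophage list changed by -0.39 and 1.30. The part of that change in these counts was not tested. Between KO and WT 0 of the 49 was called in naive retinas, after IOP elevation or after ONC.

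The markers of homeostatic microglia stood beside the 9 genes as follows. In naive retinas 3 of the 16 were called lower in the KO, Fcrls (-1.48 ± 0.25), Mertk (-1.28 ± 0.28) and Sparc (-1.23 ± 0.25), beside 0.339% of all genes. The median of the 16 was -0.97, against -0.98 for the pan-macrophage list. After ONC 1 of 16 rose in WT, Olfml3 (1.29 ± 0.39), and 11 rose in the KO (median 1.19), Sparc (2.04 ± 0.25), Fcrls (1.84 ± 0.25) and Siglech (1.54 ± 0.27) among them, where 12.7% of all genes were called higher and the median of the pan-macrophage list was 1.83. After IOP elevation 0 of 16 was called in WT, while in the KO 9 rose (median 1.01, against 1.3 for the pan-macrophage list), where 5.06% of all genes were called higher. Cx3cr1, the reporter locus, was called lower in that comparison (-4.17 ± 0.35), and the source of this difference was not tested. Cx3cr1 was also the 1 marker called between the genotypes after IOP elevation, lower in the KO (-5.19 ± 0.35, adjusted p = 1.21e-08, limma). Markers of border macrophages and monocytes fell in WT after ONC, with 7 of 13 called, Lyve1 (-4.50 ± 0.49), Mrc1 (-4.00 ± 0.55) and Pf4 (-3.81 ± 0.50) among them, beside 10.5% of all genes called lower. In the KO 1 rose, Plac8 (2.40 ± 0.64), and 0 fell. The interaction of genotype and ONC was called for 1 of the 13. Between KO and WT after ONC 1 was called, Lyve1, higher in the KO (2.97 ± 0.49, adjusted p = 0.00908, limma). In naive retinas 0 were called between genotypes, at a median of -0.83.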

How the data were processed

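RNA of sorted GFP+ retinal cells was sequenced in 23 libraries (groups of 4, with 3 for WT after ONC), grouped by the labels. The authors deposited normalized counts for 35825 genes, a signal value in which the read counts of a library are divided by its size factor. The study's methods name salmon and paired-end reads, and the submitters' processing notes name STAR, DESeq2 and GRCm38. In each library the values were whole multiples of 1 step (within 0.01 of a read), so reads could be recovered for 23 libraries: 22180480 to 30296094 per library. For 2 KO IOP libraries the step lies close to 1. Precision beyond counting error rests on the replicates, and since retinas were pooled, p-values measure the spread between pools.

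Symbols were matched by identifier for 34732 genes, and positions and exon lengths came from GENCODE M21 (GRCm38). limma 3.58.1 (R 4.3.3) was fitted to log2(normalized count + 1) of 17102 genes with at least 10 normalized counts in at least 3 libraries, with the 6 groups in the design, an intensity trend and 9 comparisons. A call needed both a Benjamini-Hochberg adjusted p below 0.05 and a log2 fold change beyond 0.58 in either direction. edgeR 4.0.16 and DESeq2 1.42.0 were run on the recovered reads as alternatives, because the deposited values are not counts. Other alternatives changed the pseudocount, the filter, the scaling, the covariates and the libraries kept. The fit was tested on simulated data. Tables were made in Python 3.11.15 with pandas 2.3.3. Promoters came from RefSeq, with entries for 7 of the 9 genes.

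The 9 genes, the lists and the rule for named genes (all 9 genes in every group, the called genes of each other list, at most 6 in each direction, and the 3 genes most like each of the 9) were chosen with earlier results of these data known. Replicate numbers did not pair the samples.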

Additional observations from a re-analysis of the deposited data

Results flagged for a closer look

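In groups of 4 libraries, 45 sets of values of the 9 genes were tested for a value far from the others of its group, and 5 were found, where chance gives about 1 in 20. Naive KO replicate 3 accounts for 3 of them, with normalized counts of 16163 for Irf8, 2338 for Maf and 44295 for Tgfbr1. The same library held 2.97% of its normalized counts in the pan-macrophage list, against 1.07 to 1.37% in the other naive KO libraries. The remaining sets were Mef2a in naive WT replicate 4 (5685) and Tgfbr1 in naive WT replicate 2 (33195).

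The response to IOP elevation differed between the genotypes by an interaction test for Irf8 (log2 difference of changes 1.35, adjusted p = 0.048) and Tgfbr1 (1.66, adjusted p = 0.0343, limma). Of all genes, 4.85% were called in that direction. With 1 library left out, Irf8 kept its call in 3 of 16 fits and Tgfbr1 in 6, and edgeR and DESeq2 called neither gene.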

How the results depend on the processing

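The 12 calls of single genes were recomputed under 16 alternatives each: 113 values kept direction and call, 63 kept direction only and 16 reversed, all 16 under the 2 scalings by the pan-macrophage list, and of 110 values with 1 library left out 51 kept the call and 59 kept the direction only. Rescaling to that list gave, after IOP elevation in the KO, Irf8 -0.22 and Tgfbr1 -0.12; after ONC in the KO, Sall1 -0.78, Irf8 -0.16, Mef2c -1.05 and Runx1 -0.16; and for the interaction with IOP, Irf8 -0.34 and Tgfbr1 -0.03. The list's mean as a covariate, chosen like the Ddx3y covariate after seeing the data, gave -0.21 and -0.23, then Sall1 -0.39, Spi1 -0.02, Irf8 -0.15 and Mef2c -0.53, then -0.33 and -0.17. By its construction either choice removes a difference shared with the list. Rescaling called 10861, 13019 and 9613 of the 17102 genes in these comparisons, in the order above. Upper-quartile rescaling moved a log2 fold change of the 9 genes by at most 0.12 and quantile normalization by at most 0.57.

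The count of the 9 genes called changed as follows, and the cause was not tested. Between KO and WT in naive retinas it went from 0 to 1 with a mean of at least 50, quantile normalization, the replicate block and DESeq2, each by Tgfbr1, lower in the KO. Pan-macrophage rescaling also gave 1, but by Mef2c, higher in the KO. In that order the settings called 132 (of 13309), 392, 108, 536 and 4144 genes, against 70 in the limma fit first described. After IOP elevation DESeq2 gave 1, with 940 genes called against 360. After ONC the pan-macrophage covariate gave 1, with 67 genes called against 15. In WT after ONC it went from 2 to 1 with no filter, upper-quartile rescaling, quantile normalization, the lens or Ddx3y covariate, or without the 6 libraries labelled Spp1 KO that had Spp1, and it stayed at 2 with other genes under the rod covariate (Mef2a higher and Maf lower) and pan-macrophage rescaling (Maf and Tgfbr1 lower). In that order the settings called 2651 (of 24627), 3163, 2667, 3473, 3241, 2488, 2164 and 3899 genes, against 3093. In the KO after IOP elevation it went from 3 to 1 with no filter, to 2 in the other direction with pan-macrophage rescaling (Sall1 and Mef2c lower) and to 0 with the rod, Ddx3y or pan-macrophage covariate, the compared groups alone, edgeR, or without those 6 libraries. No filter called 877 of 24627 genes, against 1347. The settings that gave 0 called 7, 5, 1, 5, 559 and 16 genes, in that order. In the KO after ONC it went from 5 to 0 with the rod covariate and to 1 with the pan-macrophage covariate, and pan-macrophage rescaling gave 5 lower and 0 higher. These settings called 503, 145 and 13019 genes, against 4043. Leaving out those libraries left 1 KO ONC library, and the values of that fit are given above. For the interaction with IOP it went from 2 to 4, in the other direction, with pan-macrophage rescaling, to 1 with upper-quartile rescaling, quantile normalization and DESeq2, and to 0 with no filter, the rod, lens, Ddx3y or pan-macrophage covariate, the compared groups alone, edgeR, or without those libraries. The settings that gave 1 called 1358, 1549 and 2158 genes, against 1496. Those that gave 0 called 1181 (of 24627), 132, 1, 44, 93, 1903, 1215 and 144, in that order. With 1 library left out the counts ran from 0 to 4 (KO against WT, naive), 0 to 1 (IOP), 0 to 0 (ONC), 0 to 0 (WT after IOP elevation), 0 to 2 (WT after ONC), 0 to 7 (KO after IOP elevation), 2 to 7 (KO after ONC), 0 to 6 (interaction with IOP) and 0 to 2 (interaction with ONC).

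Libraries with the same replicate number did not deviate together (r from -0.253 to 0.23, median 0.005 over 55 pairs), so the numbers do not pair the samples. The replicate block gave 0, 0, 0, 2, 3, 5, 2 and 0 calls in the other 8 comparisons, as without it.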
